A study of Mus musculus with 6 samples.

Results

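The 10 genes described here (Trem2, Tyrobp, Apoe, Gpnmb, Lpl, Lgals3, Cd9, Cd63, Fabp5 and Clec7a) are commonly used to mark lipid-associated macrophages, and they were measured among 24422 genes in whole mouse kidney at postnatal day 60. Their symbols were taken from the 2 count tables; the set was chosen by the rise of Trem2 in the TfR1KO;KspCre kidneys, so the genotype differences of all 10 genes are a description; counts of calls among them are printed beside the share of all genes called, and are not used as evidence. All 10 passed the filter on low counts, as did 15171 genes in all; Trem2 and Gpnmb would not have passed on the controls alone (under 0.532 CPM of the library total in at least 1 control) and owed their place to the knockouts. RNA from 3 control kidneys (wild type) and 3 TfR1KO;KspCre kidneys (genotype Tfr1f/f;KspCre), all C57BL/6 and kept on an iron-sufficient diet of 220 ppm iron, was sequenced. In the second group exons 3 and 4 of the transferrin receptor gene (TfR1, symbol Tfrc) are floxed, and the KspCre transgene, with the Ksp-cadherin promoter, deletes them in the distal nephron. The deletion therefore targets tubular epithelium and not macrophages. The labels give the controls as wild type and do not say whether they carried the floxed allele, and the libraries are called control 1 to 3 and knockout 1 to 3 after their titles.

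TREM2 is a surface receptor of macrophages, microglia and osteoclasts that binds phospholipids and lipoproteins, apolipoprotein E among them. It has no signalling tail of its own and pairs with the adaptor TYROBP, whose activation motif recruits the kinase SYK. Macrophages loaded with lipid in adipose tissue, in the arterial wall and in injured organs share a set of transcripts for lipid uptake, lysosomes and matrix adhesion, and the genes listed above are usually counted among them. Several are also made by epithelial, endothelial or fat cells, in particular the tetraspanins Cd63 and Cd9.

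Total counts ranged from 11501053 (knockout 3) to 21001341 (control 1), and CPM below are counts of a gene over the TMM-scaled size of its library. Of 8 kidney genes fixed as a check of the tissue, among them Cdh16, Umod and Lrp2, all were expressed in every library. Tfrc, the targeted gene, was at 138, 168 and 62.0 CPM in controls 1 to 3 and at 214, 86.0 and 40.6 CPM in knockouts 1 to 3. The ranges overlapped, and counts over the whole gene in the whole kidney do not check a deletion of 2 exons in part of the nephron. Control 2 stood apart in sex-linked transcripts, with 52 counts of Xist and 3980 counts over 4 Y-linked genes against 10458 to 23845 and 3 to 5 in the other 5 libraries. The ribosomal gene Rn45s took 2.59% of counts in knockout 3 and 0.506% to 0.745% elsewhere. The part of sex or of ribosomal RNA in the results was not tested beyond a fit with the Xist to Y ratio as a covariate and fits without each of these libraries.

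The receptor Trem2 (ENSMUSG00000023992; NCBIM37 chromosome 17, 48485726 to 48493472, plus strand) was close to absent from the control kidney, with 3, 2 and 1 reads in controls 1 to 3 against 103, 766 and 257 in knockouts 1 to 3. In CPM these were 0.149, 0.118 and 0.0600 in the controls and 5.06, 38.4 and 19.7 in the knockouts. The groups lay far apart, and knockout 2 held 7.60 times the level of knockout 1. Summed over libraries and scaled to depth, the ratio of knockout to control reads was 189, with a 95% counting interval of 86.6 to 516 that covers counting error only. The ratio of mean CPM was 193 over all libraries, 114 without knockout 2 and 267 without knockout 1. The fitted log2 fold change was 7.48 ± 0.96 (SE), a value that depends on the prior count because the controls held so few reads. A difference in the number of cells of a type and one in the RNA per cell cannot be told apart in RNA of a whole organ, here or for the genes that follow.

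Its adaptor Tyrobp (ENSMUSG00000030579; chromosome 7, 31198807 to 31202596, plus strand), which also serves many other receptors of myeloid and natural killer cells, was present in every kidney. It was at 5.12, 4.23 and 8.58 CPM in controls 1 to 3 and at 22.5, 71.5 and 41.4 CPM in knockouts 1 to 3. The mean went from 5.98 ± 2.30 to 45.1 ± 24.7 CPM (SD, n = 3 per group), a 7.55-fold difference of means and a log2 fold change of 2.92 ± 0.48 (SE). The difference in Tyrobp was thus far smaller on the fold scale than that in Trem2, although both lay higher in each knockout than in any control. Clec7a (ENSMUSG00000079293; chromosome 6, 129411611 to 129422790, minus strand), the lectin receptor for fungal beta-glucan, was at 1.34, 2.00 and 3.00 CPM in the controls and 14.2, 67.6 and 33.2 CPM in the knockouts. Its mean went from 2.11 ± 0.835 to 38.4 ± 27.1 CPM, an 18.1-fold difference (log2 fold change 4.19 ± 0.64) that came to 11.2-fold without knockout 2 and 23.9-fold without knockout 1. Knockout 2 was again the highest library and knockout 1 the lowest of the knockouts.

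Upstream sequences were read from RefSeq for 7 of the 10 genes on GRCm38.p6, a later build than that of the counts; Tyrobp, Lpl and Fabp5 were not matched. The 250 bases before the start site are shown for Trem2, Clec7a and Gpnmb, the genes with the largest fold changes, and for Cd63, which was lower in the knockouts, as a contrast. Capitals mark the core of PU.1 sites, GAGGAA or its reverse complement TTCCTC, and the letters TGANTCA. These are wider than the AP-1 motif, which has C or G at N, and the stretch in Trem2 has A there. The windows lie at chr17:48346151-48346400 (plus strand), chr6:129472780-129473029 (minus strand), chr6:49036268-49036517 (plus strand) and chr10:128909095-128909344 (plus strand), in the same order.
Trem2: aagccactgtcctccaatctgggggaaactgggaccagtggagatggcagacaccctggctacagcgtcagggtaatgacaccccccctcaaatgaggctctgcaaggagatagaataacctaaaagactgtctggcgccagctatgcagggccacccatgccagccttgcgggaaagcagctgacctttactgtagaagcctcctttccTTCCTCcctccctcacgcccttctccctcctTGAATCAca
Clec7a: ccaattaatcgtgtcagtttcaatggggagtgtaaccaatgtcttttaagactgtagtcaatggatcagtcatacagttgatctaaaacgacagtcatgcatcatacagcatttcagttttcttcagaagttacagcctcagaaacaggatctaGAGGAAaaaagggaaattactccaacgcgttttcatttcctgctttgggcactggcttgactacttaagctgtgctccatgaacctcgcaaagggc
Gpnmb: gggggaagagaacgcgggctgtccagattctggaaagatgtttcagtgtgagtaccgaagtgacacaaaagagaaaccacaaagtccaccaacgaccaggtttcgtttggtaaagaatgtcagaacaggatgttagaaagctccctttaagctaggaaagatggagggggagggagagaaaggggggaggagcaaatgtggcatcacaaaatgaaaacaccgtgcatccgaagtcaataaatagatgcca
Cd63: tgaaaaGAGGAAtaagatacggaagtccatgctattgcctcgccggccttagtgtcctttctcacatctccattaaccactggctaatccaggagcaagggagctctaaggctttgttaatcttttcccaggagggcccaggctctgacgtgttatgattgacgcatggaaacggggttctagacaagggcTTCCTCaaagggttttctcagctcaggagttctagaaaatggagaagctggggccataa

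Searched on both strands over windows from 250 bases before to 50 after the start, GAGGAA was found in 4 of the 7 genes (Apoe, Cd63, Clec7a and Trem2) and in 31.3% of 27025 genes with a window (28.3% of 32851 windows). The letters TGANTCA were found in 2 of the 7 (TGAATCA in Trem2, and TGACTCA in Gpnmb just past its start) and in 8.97% of all genes (7.81% of windows), and the E-box CACGTG in 0 of the 7 and in 8.09% of all genes (7.15% of windows). None of the 3 motifs overlapped another in the windows shown. The PU.1 core stood in the window of Cd63, which was lower in the knockouts, as well as in those of genes that were higher. These letters are a description of the sequence and not of binding.

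Apoe (ENSMUSG00000002985; chromosome 7, 20281458 to 20284515, minus strand), the lipoprotein component that is also a ligand of TREM2, was, per kilobase of transcript, second to Cd63 among the 10 in the mean of each group, though Lpl stood above it in control 2 and Apoe above Cd63 in knockout 2. Its level was 462, 160.4 and 221 CPM in controls 1 to 3 and 759, 1651 and 668 CPM in knockouts 1 to 3. The groups did not overlap, but control 1 lay 2.88 times above control 2 and knockout 2 lay 2.47 times above knockout 3. The mean went from 281 ± 160 to 1026 ± 543 CPM (3.65-fold; log2 fold change 1.87 ± 0.52). It was 1.34 on the log2 scale without knockout 2 and 2.41 without control 1.

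Lipoprotein lipase, Lpl (ENSMUSG00000015568; chromosome 8, 71404390 to 71431347, plus strand), which releases fatty acids from triglyceride-rich particles, went the other way. It was at 537, 951 and 489 CPM in the controls and at 276, 349 and 274 CPM in the knockouts. On average it went from 659 ± 254 to 299.6 ± 42.7 CPM, 0.455 of the control level (log2 fold change -1.14 ± 0.30). Every knockout lay below every control, and control 2 lay 1.85 times above the mean of the other two controls. Without control 2 the log2 fold change was -0.79.

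Fabp5 (ENSMUSG00000027533; chromosome 3, 10012548 to 10016607, plus strand), a carrier of fatty acids inside the cell, was the 1 gene whose groups overlapped. It was at 21.1, 12.9 and 20.8 CPM in the controls and 10.6, 31.9 and 18.8 CPM in the knockouts, with means of 18.3 ± 4.69 and 20.4 ± 10.7 CPM. The log2 fold change of 0.16 ± 0.41 was smaller than its error and took the other sign without control 2 (-0.05) and without knockout 2 (-0.32). Of the 100-base words of its transcript, 56.0% matched elsewhere in the genome with at most 2 mismatches, on 5 chromosomes. As only uniquely mapped reads were counted, its level is uncertain.

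Gpnmb (ENSMUSG00000029816; chromosome 6, 48986517 to 49020928, plus strand), a transmembrane glycoprotein of lysosomes and melanosomes, showed the steepest difference after Trem2. It held 8, 8 and 17 reads in controls 1 to 3 and 79, 1414 and 406 reads in knockouts 1 to 3, which is 0.398, 0.470 and 1.02 CPM against 3.88, 71.0 and 31.1 CPM. Knockout 2 stood 18.3 times above knockout 1, the widest spread among the knockouts of any of the 10 genes. Averaged over libraries it went from 0.630 ± 0.340 to 35.3 ± 33.7 CPM, a 56.1-fold difference that came to 27.8-fold without knockout 2 and 81.1-fold without knockout 1. The log2 fold change was 5.81 ± 1.11.

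Lgals3 (ENSMUSG00000050335; chromosome 14, 47987426 to 48005835, plus strand), which encodes galectin-3, a lectin that gathers at damaged lysosomes, had the smallest error of the 10. It was at 58.4, 47.0 and 65.7 CPM in the controls and 140.9, 173 and 169.8 CPM in the knockouts. The mean went from 57.0 ± 9.46 to 161 ± 17.7 CPM (2.83-fold; log2 fold change 1.50 ± 0.18), and the spread within each group was small beside the distance between them. Its range over fits that each left out 1 library was 1.37 to 1.61.

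The tetraspanins Cd9 and Cd63, which organize other membrane proteins and mark extracellular vesicles, parted. Cd9 (ENSMUSG00000030342; chromosome 6, 125410284 to 125444809, minus strand) was at 133, 106 and 142 CPM in the controls and 176, 222 and 328.5 CPM in the knockouts. Its mean went from 127 ± 18.8 to 242 ± 78.4 CPM (1.90-fold; log2 fold change 0.93 ± 0.26), with every knockout above every control. A long non-coding RNA, Gm16749, overlaps Cd9 on the other strand, and without the strand setting of the counting their reads cannot be told apart.

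Cd63 (ENSMUSG00000025351; chromosome 10, 128345975 to 128349872, plus strand), which sits in the membrane of late endosomes and lysosomes, was at 1000.4, 1102 and 1112 CPM in the controls and 953, 623 and 532 CPM in the knockouts. The mean went from 1071 ± 61.5 to 703 ± 222 CPM, 0.656 of the control level (log2 fold change -0.61 ± 0.28). All 3 knockouts lay below the controls, but knockout 1 came close to them. For Cd63, 69.0% of the words of the transcript matched elsewhere, on 1 other chromosome, so its counts from unique reads are uncertain.

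**Figure D1:**
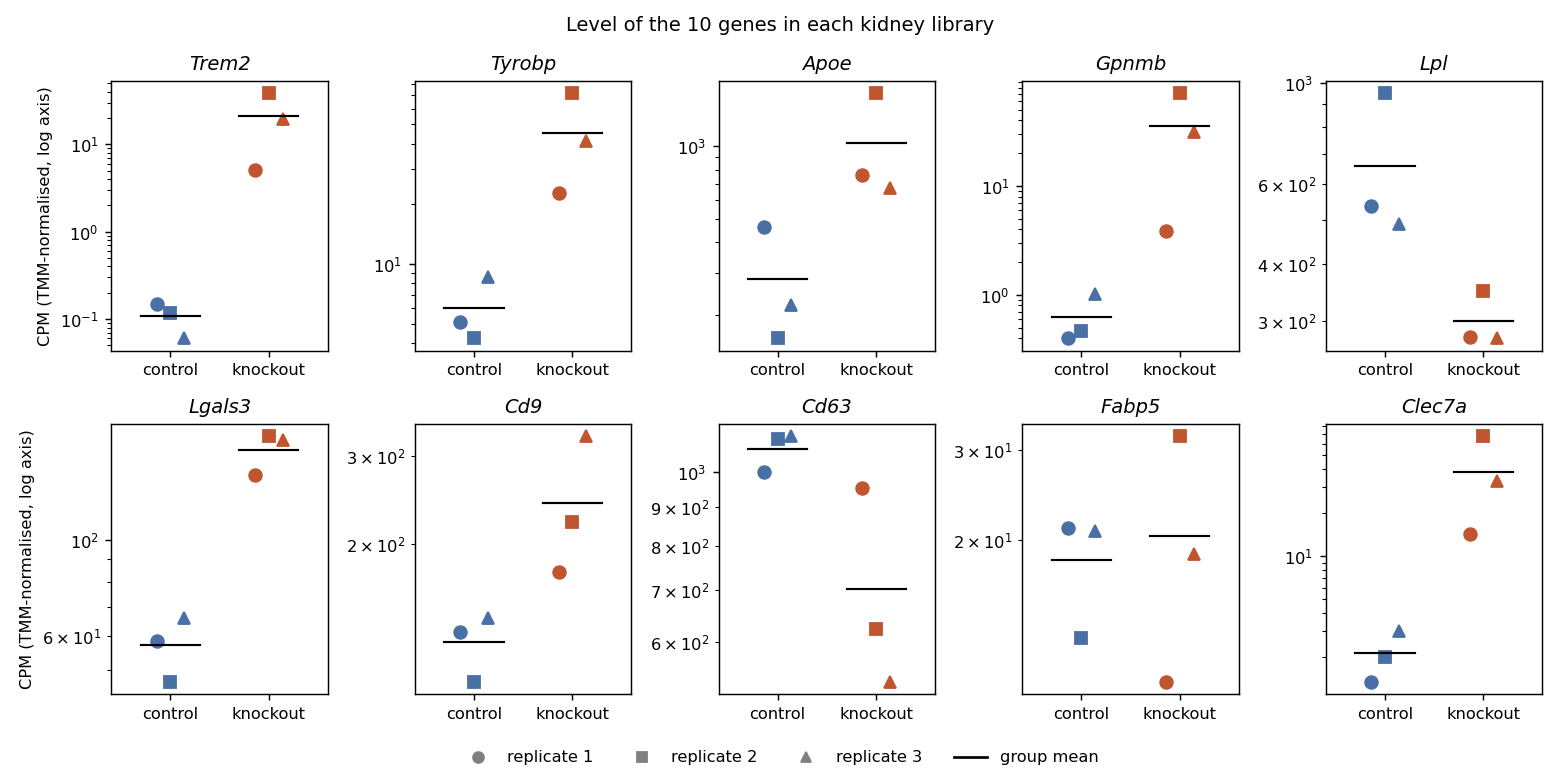
TMM-normalised CPM (log axis, a separate scale for each gene) of the 10 genes in the 3 control (blue) and 3 knockout (red) libraries, with the group mean as a line and the replicate number as the symbol. The groups are separate in 9 genes and overlap in Fabp5; Lpl and Cd63 are lower in the knockouts, and replicate 2 (square) is the highest knockout in 8 genes.

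Taken as a set, 8 of the 10 genes were higher on average in the knockouts, 7 with all 3 knockouts above all 3 controls, 2 (Lpl and Cd63) with all knockouts below, and 1 (Fabp5) with overlap. Over all 15171 genes, 23.8% had all knockouts above and 22.2% all knockouts below. At an adjusted p under 0.05 in edgeR's quasi-likelihood test, 6 of the 10 were called, 5 higher (Trem2, Tyrobp, Gpnmb, Lgals3 and Clec7a) and 1 lower (Lpl), where 17.2% of all genes were called, 10.6% higher and 6.64% lower. Because Trem2 chose the set on this contrast, nothing is read from these counts. The median log2 fold change of the 10 was 1.68, and that of all genes tested was 0.02. The calls depended on the fit and on single libraries: 0 of the 10 were called without control 1, without control 2, without control 3 or without knockout 3, 1 (Trem2) without knockout 2, and 9 without knockout 1. Over all genes these fits called 0, 0, 0, 2, 73 and 5332, in the same order. With any one of the controls, knockout 2 or knockout 3 left out, 8 of the 10 had an unadjusted p under 0.05 in edgeR's test, beside 4270 to 4823 of all genes (15408 to 15624 tested). On all 6 libraries DESeq2's Wald test called 9 of the 10 (4882 of 15171 genes) and limma-voom 4 (2030 genes). With the replicate number as a block or with the covariate for sex-linked transcripts, edgeR called 0 of the 10 and 0 of all genes. At an unadjusted p under 0.05 stood 8 of the 10 in both fits, beside 5432 and 4221 of all genes. Nothing is read from these counts either.

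**Figure D2:**
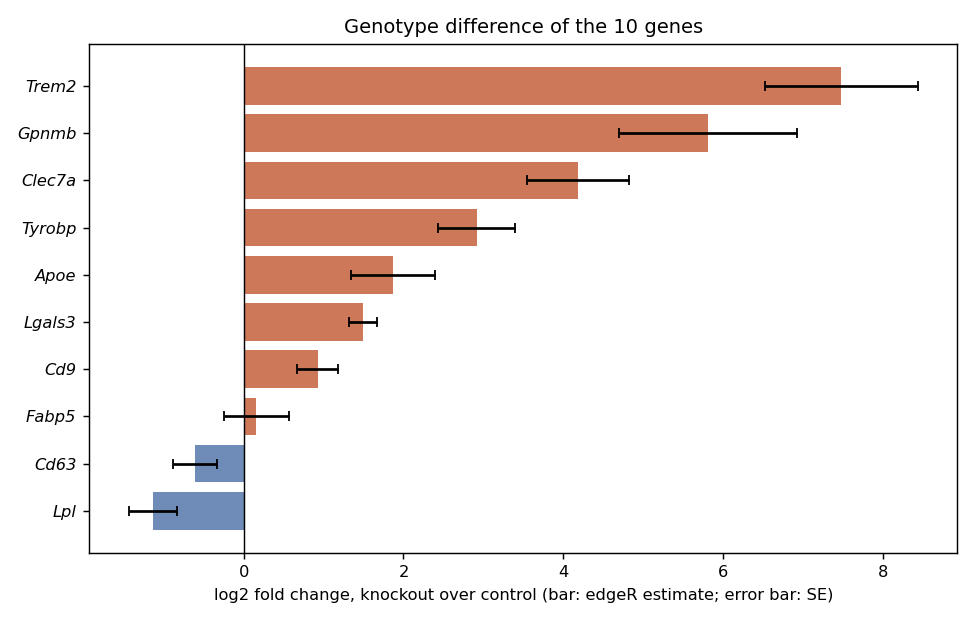
Fitted log2 fold change of knockout over control for each of the 10 genes (bars, red higher and blue lower in the knockouts; error bars, SE from edgeR; 3 libraries per group). The values run from 7.48 for Trem2 to -1.14 for Lpl, and the error bar of Fabp5 crosses 0.

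The summed level of the 10 transcripts overlapped between the groups, while its make-up differed. It was 2220, 2386 and 2063 CPM in controls 1 to 3 and 2361, 3298 and 2117 CPM in knockouts 1 to 3. Cd63 gave 45.1% to 53.9% of the sum in the controls and 18.9% to 40.4% in the knockouts. Apoe gave 6.73% to 20.8% and 31.6% to 50.1%, and Lpl 23.7% to 39.9% and 10.6% to 13.0%. Trem2, from which the set takes its name, made up 0.00291% to 0.00672% in the controls and 0.214% to 1.17% in the knockouts. The 3 most abundant genes of the sum were Cd63, Apoe and Lpl in each library but knockout 3, where Cd9 stood above Lpl.

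Per kilobase of transcript, the order of the levels in the controls was Cd63, Apoe, Lpl, Cd9, Lgals3, Fabp5, Tyrobp, Clec7a, Gpnmb and Trem2. Neighbours whose ranges overlapped were Apoe and Lpl, Fabp5 and Tyrobp, and Gpnmb and Trem2. The levels ran from 1142 ± 65.6 CPM per kilobase for Cd63 to 0.100 ± 0.0416 for Trem2. In the knockouts the order was Cd63, Apoe, Cd9, Lgals3, Tyrobp, Lpl, Fabp5, Trem2, Clec7a and Gpnmb, from 749 ± 236.5 to 9.30 ± 8.88 CPM per kilobase. There Cd63 and Apoe overlapped, as did Lgals3 with Tyrobp, Tyrobp with Lpl, and each neighbour from Fabp5 to Gpnmb. On this scale Lpl moved from the third place to the sixth, and Trem2 from the last to the eighth, at 19.4 ± 15.4 CPM per kilobase. The places depend on the length used, which was the longest protein-coding transcript. That was 1088 bases for Trem2 and 987 for Fabp5, against 4946 and 3567 bases over all their exons. The order on the longer lengths was not worked out, so the place of Trem2 among the lowest genes is uncertain.

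The receptor also changed against its own adaptor. For every 100 units of Tyrobp per kilobase there were 1.51, 1.44 and 0.362 units of Trem2 in controls 1 to 3 and 11.6, 27.9 and 24.7 units in knockouts 1 to 3. Set against 100 units of Clec7a, Trem2 stood at 23.2, 12.3 and 4.17 in the controls and at 74.4, 119 and 123.5 in the knockouts. Both ratios were higher in every knockout than in any control. Their size depends on the transcript lengths used, but which libraries were higher does not. With 1 to 3 reads of Trem2 in each control, the control ratios carry a large counting error.

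The knockouts differed among themselves in a common order. In 8 of the 10 genes knockout 2 was the highest knockout, in 7 knockout 1 was the lowest, and in 7 knockout 1 was the nearest to the control mean. In 6 of the genes (Trem2, Tyrobp, Gpnmb, Lgals3, Fabp5 and Clec7a) the levels followed the order knockout 1, knockout 3, knockout 2. The summed level of 18 pan-macrophage genes, none of them among the 10, had the same order, at 860.5, 2982 and 1206 CPM against 318, 308 and 324 CPM in controls 1 to 3. Cd9 followed another order and was highest in knockout 3, and Cd63 was lowest there.

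Of those 18 macrophage genes, 16 rose and 0 fell in edgeR's test (10.6% of all genes were called higher), with a median log2 fold change of 3.07. With control 1, 2 or 3 left out, with the block or with the covariate 0 of all genes were called, and without knockout 3 only 2 of all genes were, so at most 2 of these calls could remain there. Csf1r, the receptor for the macrophage growth factor, was the largest part of the sum in each control, with the engulfment receptor Mertk second. In each knockout it was Lyz2, the myeloid lysozyme, at 34.2, 17.9 and 37.6 CPM in the controls and 198, 906 and 319 CPM in the knockouts. Csf1r and Mertk were the 2 genes that were not called. Csf1r was at 105.7, 117 and 94.0 CPM in the controls and 105.6, 208 and 72.1 CPM in the knockouts (log2 fold change 0.28 ± 0.37, adjusted p = 0.601). Lyz2, Csf1r and Mertk are singled out after their values were seen.

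The direction of several of the 10 genes depended on the reference. Per 1000 CPM of the summed macrophage genes, Trem2 was at 0.469, 0.382 and 0.185 in the controls and at 5.87, 12.9 and 16.3 in the knockouts, a 33.9-fold difference of means. Gpnmb was 9.12-fold higher and Clec7a 3.34-fold higher on this scale, again with every knockout above every control. Tyrobp, at 13.7 to 26.5 in the controls and 23.98 to 34.3 in the knockouts, overlapped (1.50-fold). The means of these 4 genes thus stood higher in the knockouts also against the macrophage sum.

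On the same scale the other 6 genes were lower in the knockouts than in the controls. Apoe came to 0.749 and Lgals3 to 0.673 of the control mean, both with overlapping groups. Cd9 came to 0.458, Fabp5 to 0.223, Cd63 to 0.173 and Lpl to 0.106 of it, all with every knockout below every control. Apoe, Lgals3, Cd9 and Fabp5 thus changed direction between the library total and the macrophage sum. Per unit of Csf1r, by contrast, the fold changes stayed near those per library total, at 166 for Trem2, 43.5 for Gpnmb, 14.9 for Clec7a, 6.43 for Tyrobp and 3.02 for Apoe, and 0.968 for Fabp5. The groups of Cd9, separate per library total, overlapped per unit of Csf1r (1.98-fold). Which of the references follows the number of macrophages was not tested.

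**Figure D3:**
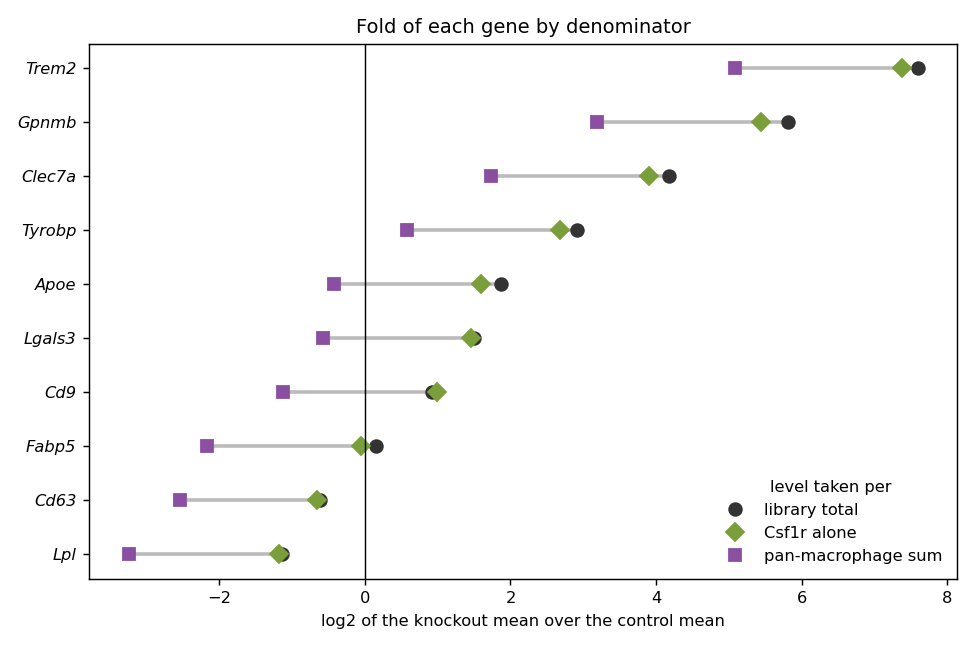
Log2 of the knockout mean over the control mean for each of the 10 genes, with the level taken per library total (black circle), per Csf1r (green diamond) or per summed pan-macrophage genes (purple square). Per macrophage sum, Trem2, Gpnmb, Clec7a and Tyrobp stay above 0 and the other 6 genes lie below it.

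Genes of the same pathway that were not among the 10 were listed in 4 groups of 93 genes, of which 83 were tested. Of these, 33 rose and 2 fell (39.8% called higher, against 10.6% of all genes), and 51 had all knockouts above and 4 all knockouts below the controls. Their median log2 fold change was 0.96. Of the 83 genes, 13 (7 of them called) were under the filter level in at least 1 control, so that they were tested only because the knockouts reached it; of the other 70 genes 26 rose (37.1%, against 9.38% of all genes without such genes), with a median of 0.73. These calls rested on single libraries as well: 0 of the related genes were called without control 1, control 2, control 3 or knockout 3, 3 without knockout 2 and 49 without knockout 1. limma-voom called 20 of them and DESeq2's Wald test 44.

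The receptors that, like TREM2, signal through TYROBP or a related adaptor, or lie in the same gene families, were mostly scarce in the controls. Of 13 tested, 9 rose and 0 fell, with a median of 2.74, but 10 of the 13, 6 of them called (among them Clec4n, Clec4d and Cd300lb), entered the test only because of their level in the knockouts, so neither the count nor the median supports a direction. The other 3 (Fcer1g, Ms4a7 and Cd300ld) all rose. Clec4n, which encodes the mannan receptor dectin-2, had a log2 fold change of 5.52 ± 0.87 and at most 5 reads in any control, and Clec4d, a lectin receptor of the same cluster, had at most 3 reads in any control and a ratio of summed reads of 36.5 (95% counting interval 16.5 to 100.4). Ms4a7, of a family linked to TREM2 in macrophages, rose by 4.31 ± 0.66 on the log2 scale (adjusted p = 0.0277 in edgeR), and Cd300lb, a lipid-binding receptor, had a log2 fold change of 3.56 ± 0.73. Ms4a6d (3.54 ± 1.05, adjusted p = 0.0586), Clec5a (2.34 ± 0.75, adjusted p = 0.0688) and Treml4 (0.88 ± 1.01, adjusted p = 0.551) did not pass. Trem1 and Trem3, the other activating receptors of the family, held too few reads to be tested.

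Downstream of the receptor and its adaptor, 9 of 21 signalling and shedding genes rose and 0 fell (42.9% called higher, against 10.6% of all genes), with a median of 0.92. Among the largest were Vav1 (2.62 ± 0.52, adjusted p = 0.0306), a guanine nucleotide exchange factor, and the leukocyte subunits of phosphoinositide 3-kinase, Pik3cg (2.29 ± 0.57, adjusted p = 0.0415) and Pik3cd (2.26 ± 0.46, adjusted p = 0.0316). The kinase Syk itself was at 7.41, 5.35 and 8.28 CPM in the controls and 14.1, 37.1 and 16.2 CPM in the knockouts and rose by 1.68 ± 0.41 (adjusted p = 0.0403). It is named after its values were seen. Adam10, a protease that sheds TREM2 from the surface, did not pass (0.52 ± 0.20, adjusted p = 0.0994), nor did the widely expressed Pik3r1 (0.28 ± 0.31, adjusted p = 0.532) and Grb2 (0.27 ± 0.12, adjusted p = 0.133).

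Other genes of lipid-associated macrophages were mixed. Of 27 tested, 12 rose and 1 fell (44.4% called higher, against 10.6% of all genes), with a median of 1.06. The macrophage elastase Mmp12 rose by 4.63 ± 0.75 (adjusted p = 0.0277), the integrin Itgax by 3.84 ± 0.50 (adjusted p = 0.0271), the endosomal GTPase Rab7b by 2.99 ± 0.58 (adjusted p = 0.0305) and the leukocyte surface gene Cd52 by 2.89 ± 0.47 (adjusted p = 0.0277). The 1 gene that fell was Lipa, the lysosomal acid lipase that frees cholesterol and fatty acids from lipoproteins, at 279, 296 and 543 CPM in the controls and 157, 183 and 109 CPM in the knockouts (-1.31 ± 0.33, adjusted p = 0.0414). Spp1 (osteopontin, 1.60 ± 0.52, adjusted p = 0.0718) and the cathepsins Ctsb (0.07 ± 0.24, adjusted p = 0.848) and Ctsl (-0.36 ± 0.25, adjusted p = 0.325), the most abundant genes that did not pass, are all made by tubular epithelium too. The fatty acid receptor Cd36, named after its values were seen, was at 199, 595 and 118 CPM in the controls and 55.9, 101 and 87.4 CPM in the knockouts (-1.90 ± 0.60, adjusted p = 0.0659); control 2 was its highest library, as it was for Lpl.

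Lipoprotein and cholesterol handling had the lowest median of the 4 groups. Of 22 tested genes, 3 rose and 1 fell (13.6% called higher, against 10.6% of all genes), with a median of 0.55. Pltp, which transfers phospholipids between lipoproteins, rose by 2.09 ± 0.42 (adjusted p = 0.0316) and the lipoprotein receptor Scarb1 by 0.79 ± 0.15 (adjusted p = 0.0305). Olr1, a receptor for oxidized lipoproteins, had at most 2 reads in any control and a ratio of summed reads of 21.5 (95% counting interval 7.03 to 107); it entered the test through the knockouts, and of the 20 genes that did not need them 2 rose. Nr1h3, the liver X receptor that drives cholesterol export and Apoe in macrophages, fell by 0.97 ± 0.23 on the log2 scale (adjusted p = 0.0378). The most abundant genes that did not pass were Lrp1 (1.27 ± 0.51, adjusted p = 0.117), Npc2 (0.66 ± 0.21, adjusted p = 0.0644) and Scarb2 (1.12 ± 0.41, adjusted p = 0.0941).

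**Figure D4:**
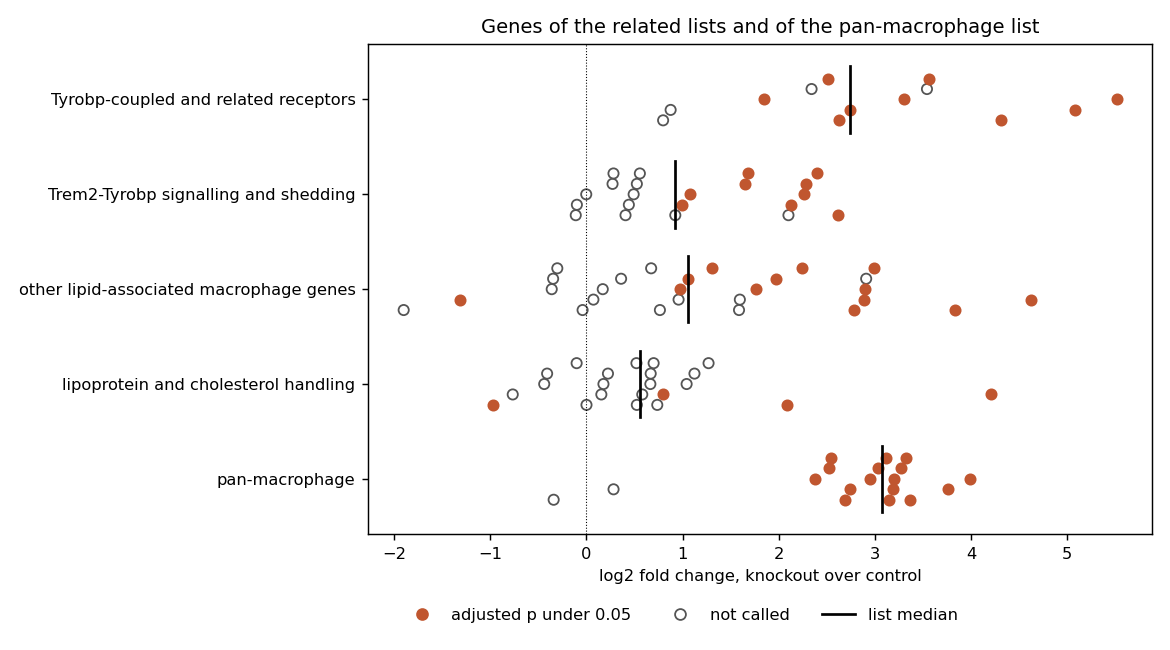
Log2 fold change of each tested gene in the 4 related groups and in the pan-macrophage list (filled, adjusted p under 0.05 in edgeR; open, not called; vertical line, list median). The medians are 2.74 for receptors, 0.92 for signalling, 1.06 for other macrophage genes, 0.55 for lipoprotein handling and 3.07 for pan-macrophage genes.

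Markers of other cell types moved with the genotype as well, and their part in the values above was not tested. Over all genes, 10.6% were called higher and 6.64% lower. The tubular injury list had 5 of 7 genes that rose and 0 that fell (2 of the 5, Havcr1 and Krt20, entered the test through the knockouts), with a summed level of 1426 to 3840 CPM in the controls and 5767 to 8787 CPM in the knockouts, most of it Spp1. Of 8 proximal tubule genes 6 fell, from 10481 to 13615 CPM summed in the controls to 1806 to 5568 CPM in the knockouts. Knockout 1, the nearest to the controls in 7 of the 10 genes, also kept the most proximal tubule transcript of the knockouts. Of 7 fibroblast and pericyte genes 4 rose, from 317 to 570 CPM to 989 to 3843 CPM summed. In the segments where KspCre acts, 0 of 6 thick ascending limb genes and 0 of 7 collecting duct genes were called. With so few genes this does not show an absence of change. The median log2 fold changes were -1.15 and -0.31, and 1 gene in each list had all knockouts below the controls. The thick ascending limb sum was 10100, 9268 and 4485 CPM in controls 1 to 3 and 6704, 1091 and 1843 CPM in knockouts 1 to 3, and the collecting duct sum 1393, 1037 and 1112 CPM against 1564.5, 846 and 513 CPM.

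T cell genes rose in 6 of 7 (6.22 to 8.04 CPM summed in the controls and 23.98 to 67.0 CPM in the knockouts) and dendritic cell genes in 6 of 7 (13.7 to 16.0 and 30.9 to 58.4 CPM), against 10.6% of all genes called higher. The summed means differed 5.56-fold for T cell and 2.75-fold for dendritic cell genes, and 5.32-fold for the 18 macrophage genes. Sums over different genes do not compare the numbers of the cells. Of 5 tested B cell genes 1 rose (3.11 to 5.52 and 6.82 to 31.8 CPM). Of these calls, 4 in T cell, 2 in dendritic cell and 1 in B cell genes were of genes that entered the test through the knockouts. None of the 4 tested neutrophil genes was called in edgeR's test (7.26 to 13.3 and 9.57 to 34.0 CPM summed). Csf3r had all 3 knockouts above the controls, at 2.94, 2.17 and 3.48 CPM against 4.52, 15.3 and 5.75 CPM (log2 fold change 1.57 ± 0.51, adjusted p = 0.0711), and was the 1 gene of the 4 with an unadjusted p under 0.05. S100a8 and S100a9 overlapped between the groups (1.77 ± 0.82 and 1.49 ± 0.65) and were highest in knockout 2, at 5.57 and 8.23 CPM. Cxcr2 was at 2.84, 3.76 and 5.46 CPM in the controls and 2.45, 3.66 and 3.45 CPM in the knockouts (-0.33 ± 0.35). The 4 neutrophil genes too low to be tested were Ly6g, Mpo and Elane, at 0.201 CPM or less in every library, and Retnlg, at 0.0498, 0.118 and 0.420 CPM in the controls and 0.196, 0.953 and 0.383 CPM in the knockouts. None of 7 endothelial genes was called in edgeR's test. All 3 knockouts lay above the controls in 2 of them, Pecam1 (0.78 ± 0.24, adjusted p = 0.0651) and Cdh5 (0.66 ± 0.24, adjusted p = 0.0961), against 23.8% of all genes, and the rest overlapped. Lpl and Cd36 are also genes of fat cells, and the 7 fat cell genes were mixed. None rose and 1 fell (Pck1, which is also a proximal tubule gene and made up most of the summed level, at 2420 to 3204 CPM in the controls and 745 to 1007.5 CPM in the knockouts), and 4 of the 7 were higher on average. Adipoq was at 40.4, 13.8 and 15.8 CPM in the controls and 5.69, 42.0 and 67.4 CPM in the knockouts. Lep was at 4.03, 4.11 and 0.720 CPM and at 0.638, 0.803 and 1.46 CPM (-1.64 ± 0.69, adjusted p = 0.129), and the log2 fold changes of the rest were -0.54 ± 0.71 for Plin1, 0.55 ± 0.83 for Cidec, 0.93 ± 0.90 for Retn and 1.34 ± 0.78 for Cfd. The part of either cell type in the values of the 10 genes was not tested.

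Across the 6 libraries, the log2 CPM of Trem2 was most like that of Vtcn1, Slc35f5, Elf4, Kcnn4 and Tfe3 (Pearson's r from 0.997 to 0.998 among 13351 genes compared), and next Gnai2, Grk6, Ccnj, Gsdmd and Lysmd2 (0.995 to 0.996). Among the other 9 genes, r with Trem2 was 0.977 for Clec7a, 0.967 for Tyrobp, 0.965 for Lgals3 and 0.964 for Gpnmb, then 0.885 for Apoe, 0.869 for Cd9 and 0.279 for Fabp5, and it was -0.783 for Lpl and -0.895 for Cd63. Of all genes compared, 2.01% had a higher r than Clec7a and 13.8% a higher r than Apoe. The 6 points fall into the 2 groups and share their libraries, so these values describe the genotype difference again and carry no test.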

How the data were processed

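RNA libraries were made from total kidney RNA of 3 control and 3 TfR1KO;KspCre mice with Illumina TruSeq kits, and the titles of the samples gave the groups and the replicate numbers. The deposited values are raw read counts per gene, in 1 table per group. Per the submitters' processing notes and the study's methods, the authors called bases with CASAVA 1.8.2, trimmed reads with Trimmomatic, aligned them to mm9 with TopHat2 2.0.11, kept reads that mapped uniquely and used HTSeq to count them. Annotation and strand setting are not given in the sources used here. Unique mapping lowers the counts of genes with near-identical copies, and antisense genes may share reads.

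Counts were analysed in R 4.3.3 with edgeR 4.0.16: filterByExpr (minimum count 10, minimum total 15) left 15171 of 24422 genes, which were TMM-normalised and fitted over all 6 libraries with glmQLFit and glmQLFTest (legacy default) without covariates, with Benjamini-Hochberg adjustment over all genes tested. A call, "rose" or "fell" is an adjusted p under 0.05. Standard errors are the log2 fold change over the square root of F. The fits were first tested on simulated data. The series gives the samples as biological replicates and says no more of their source, so the p-values measure the spread between these samples. The study's supplement compares its models with wild type littermates but gives no age there, so whether this covers these libraries is not known. Depth per library was 11501053 to 21001341 counts, and the 95% intervals on ratios of summed counts (exact binomial) cover counting error only.

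The 10 genes and all gene lists were chosen with earlier results of these data known. Named genes are the 10; from each related list up to 4 called genes with the largest absolute log2 fold change and up to 3 genes not called with the highest mean CPM; and the 10 other genes most correlated with Trem2 (average log2 CPM of at least 1). One gene that this rule names is not reported here. Levels per kilobase used the longest protein-coding transcript of GENCODE M1 on NCBIM37 (mm9), which also gave the coordinates; its 100-base words were aligned to that genome, and a match elsewhere needed 98 aligned bases and at most 2 mismatches. Upstream sequences are from RefSeq. Alternatives were DESeq2 1.42.0 size factors, library size alone, no filter, DESeq2's Wald test, limma-voom (limma 3.58.1), the newer quasi-likelihood version, the replicate number as a block, a covariate (Xist over Y-linked genes, log2), and leaving out each library.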

Additional observations from a re-analysis of the deposited data

How the results depend on the processing

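Calls depended on the fit far more than the fold changes did. In place of 2612 genes, DESeq2's Wald test called 4882 over all genes. In place of 35 related genes, limma-voom called 20. Leaving out 1 library at a time gave 0 to 5332 calls over all genes, 0 to 9 among the 10 genes and 0 to 49 among the related genes. The covariate for sex-linked transcripts and the replicate number as a block each left 0 calls over all genes, 0 among the 10 and 0 among the related genes in edgeR's test, with 4221 and 5432 genes at an unadjusted p under 0.05 and 8 of the 10 genes under it in both fits. The deviations of same-numbered libraries from their group means correlated at -0.129, 0.0116 and 0.215. Because each group mean rests on 3 libraries, these values do not settle whether same-numbered libraries were paired. The 0 calls without controls 1, 2 and 3 stood beside 4808, 4270 and 4823 genes at an unadjusted p under 0.05, and the 73 and 2 calls without knockouts 2 and 3 beside 4604 and 4456. The fit without knockout 1, with as many libraries, called 5332; the cause was not tested. Scaling by library size alone moved the median of all genes by 0.271 on the log2 scale and took the share of calls that were higher from 61.4% to 81.8%; none of the 10 genes changed direction under it. Over all fits, Fabp5 alone of the 10 changed sign, at -0.0418 with the covariate and between -0.32 and 0.46 over the fits that left out 1 library (-0.05 without control 2, -0.32 without knockout 2). With the pan-macrophage sum as reference, the log2 ratios of Apoe (-0.42), Lgals3 (-0.57), Cd9 (-1.13) and Fabp5 (-2.16) were reversed, and per Csf1r that of Fabp5 (-0.0471); the cause was not tested. Among single genes, 8 values reversed; the others kept their sign, 7 of them moving by more than the spread. With 1 to 3 reads of Trem2 per control, depth limits the size of its fold change but not its direction.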

Other observations

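Trem2 and Tyrobp also serve osteoclasts, the bone-resorbing cells that arise from the same lineage as macrophages. Of 5 tested osteoclast genes 3 were called higher in edgeR's test, against 10.6% of all genes, but Dcstamp and Calcr, 2 of the 3, were under the filter level in at least 1 control and entered the test through the knockouts. The fusion receptor Dcstamp was at 0.0498, 0.0588 and 0.0600 CPM in controls 1 to 3, 1 read each, and at 0.638, 1.10 and 0.536 CPM in knockouts 1 to 3. The collagen-degrading cathepsin Ctsk was at 5.22, 4.11 and 4.02 CPM in the controls and at 10.7, 61.3 and 16.5 CPM in the knockouts (log2 fold change 2.73 ± 0.66, adjusted p = 0.0396). Acp5, the tartrate-resistant phosphatase of the same cells, went from 47.7, 59.3 and 75.7 CPM to 42.2, 48.2 and 35.2 CPM and did not pass (-0.54 ± 0.21, adjusted p = 0.105). These 3 genes were picked after their values were seen.

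Among the other lipid-associated macrophage genes, Ctsd, the aspartic protease cathepsin D, rose from 732, 765 and 787 CPM in the controls to 1530.5, 1749 and 1219.5 CPM in the knockouts (log2 fold change 0.98 ± 0.24, adjusted p = 0.0396 in edgeR), and Hexa, which degrades gangliosides, rose by 1.06 ± 0.22 (adjusted p = 0.0317). Plin2, the coat protein of lipid droplets, was at 93.6, 114 and 97.8 CPM in the controls and 80.8, 87.8 and 71.4 CPM in the knockouts, lower in every knockout but not past the threshold (-0.35 ± 0.14, adjusted p = 0.124). Ctsd, Hexa and Plin2 were picked after their values were seen.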
